A study of Homo sapiens with 12 samples.

Results

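The p53 pathway genes described here are 31 genes taken by symbol from a table of 58735 genes, each matched by 1 row of the table. They comprise the p53 relative TP73, regulators of p53 such as MDM2, MDM4 and PPM1D, and genes known as transcriptional targets of p53 in human cells. RNA was sequenced from 2 human oesophageal squamous cell carcinoma lines, KYSE180 and KYSE150, in 12 libraries. The groups, of 3 libraries each, were KYSE180 with CDCA7 overexpression, native KYSE180 of wild-type genotype, KYSE150 carrying the hairpin shCDCA7, and native KYSE150 of wild-type genotype. All were grown in RPMI-1640 with serum and no group was labelled with a drug or a DNA-damaging treatment. The labels name no empty vector for the overexpressing cells and no control hairpin for the shCDCA7 cells, and do not say whether each derivative is 1 clone or a pool. The labels also do not say that the libraries of a group came from separate cultures, so the p-values measure only the spread between these libraries, which may be technical.

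p53 is a transcription factor that is kept at a low level by MDM2, a ubiquitin ligase that marks it for degradation and is itself a p53 target, which closes a feedback loop. When DNA is damaged or replication is disturbed, stabilised p53 binds short DNA elements and raises the transcription of genes that stop the cell cycle, repair DNA, adjust metabolism or trigger cell death through mitochondria. Squamous carcinomas of the oesophagus often carry altered p53, and many of the genes listed here also have other regulators, so their RNA level is not a reading of p53 activity.

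CDCA7, the manipulated gene, had 44.6, 59.1 and 57.9 FPKM in overexpressing KYSE180 and 24.0, 18.2 and 17.4 FPKM in native KYSE180, which is a log2 change of 1.40 (SE 0.17, adjusted p = 0.00947). The hairpin cells had 9.24, 10.1 and 8.83 FPKM, against 27.4, 25.6 and 25.6 FPKM in native KYSE150, or a log2 change of -1.39 (SE 0.091, adjusted p = 0.00166). FPKM are the deposited read fragments per kilobase of gene, scaled to library size. All log2 values below are differences of log2(FPKM + 1) from limma-trend, a linear model fitted over all genes, and a gene was called, and is said to have risen or fallen, when its Benjamini-Hochberg adjusted p was under 0.05. Because of the added 1, these differences understate the change of genes at a few FPKM.

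The libraries held 16282281 to 19573805 reads. Between 7 and 8 of 8 squamous epithelial markers averaged at least 1 FPKM in each group, and their summed level was 3860 to 4467 FPKM in overexpressing KYSE180, 1908 to 3453 in native KYSE180, 613 to 711 with shCDCA7 and 423 to 440 in native KYSE150. Of the 8 fibroblast markers, at most 1 reached a mean of 1 FPKM in a group. Their summed level ran from 4.76 to 5.30 FPKM in overexpressing KYSE180, 3.35 to 5.51 in native KYSE180, 1.28 to 1.68 with shCDCA7 and 0.784 to 0.862 in native KYSE150, with COL1A2 at 0 reads in both KYSE180 groups and PDGFRA and THY1 at 0 reads in both KYSE150 groups. No leukocyte or endothelial marker reached a mean of 1 FPKM in any group, and those sums stayed at or below 2.005 and 1.62 FPKM. LYZ had 0 reads in all 4 groups. The library of shCDCA7 replicate 2 stood apart. Its correlation was 0.952 with replicate 1 and 0.955 with replicate 3, whereas replicates 1 and 3 reached 0.995, and 11.2% of its reads came from mitochondrial genes, against 5.20% and 5.73% in the other shCDCA7 libraries and 4.03% to 4.15% in native KYSE150. The mitochondrial share was also higher in overexpressing KYSE180, at 7.97% to 8.65%, than in native KYSE180, at 4.76% to 6.38%. Among the native KYSE180 libraries, replicates 2 and 3 were the least alike, with a correlation of 0.965. The part of these differences in the results below was not tested, but results that rest on a single library are given with and without it.

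p53 binds pairs of a loosely defined half-site decamer, and the promoters of the members were read for it to show how these genes are built, since several of them moved. RefSeq sequence of GRCh38.p14 gave 42 windows of 250 bases immediately before a transcription start for 28 of the 31 members, all but PHLDA3, RRM2B and TP53INP1. The half-site decamer, searched on both strands, lay in 4 of the 42 windows (9.52%), in the genes AEN, FDXR, PLK2 and SESN1, against 1957 of 35116 windows of all genes (5.57%). By gene, the share was 4 of 28 members (14.3%) against 6.80% of 27305 genes. The 4 windows are shown in the direction of transcription with the decamer in capitals, followed by a window of CCNG1, the member called in both lines, in which there was no match.
AEN (chr15:88621090-88621339, plus strand): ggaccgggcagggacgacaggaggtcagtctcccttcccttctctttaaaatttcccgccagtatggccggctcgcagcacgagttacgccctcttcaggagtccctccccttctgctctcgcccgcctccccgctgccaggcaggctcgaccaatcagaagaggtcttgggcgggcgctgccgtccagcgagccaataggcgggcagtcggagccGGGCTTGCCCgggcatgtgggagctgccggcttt
FDXR (chr17:74872995-74873244, minus strand): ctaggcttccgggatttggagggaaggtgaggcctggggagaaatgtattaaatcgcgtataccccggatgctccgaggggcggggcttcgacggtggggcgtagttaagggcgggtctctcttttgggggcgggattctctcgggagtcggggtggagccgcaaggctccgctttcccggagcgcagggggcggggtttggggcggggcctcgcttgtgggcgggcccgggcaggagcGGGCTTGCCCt
PLK2 (chr5:58460087-58460336, minus strand): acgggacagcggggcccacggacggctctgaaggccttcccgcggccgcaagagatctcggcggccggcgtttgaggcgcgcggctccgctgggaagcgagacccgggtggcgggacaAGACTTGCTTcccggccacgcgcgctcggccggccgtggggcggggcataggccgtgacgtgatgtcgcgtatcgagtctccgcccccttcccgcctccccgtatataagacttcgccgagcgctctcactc
SESN1 (chr6:109008989-109009238, minus strand): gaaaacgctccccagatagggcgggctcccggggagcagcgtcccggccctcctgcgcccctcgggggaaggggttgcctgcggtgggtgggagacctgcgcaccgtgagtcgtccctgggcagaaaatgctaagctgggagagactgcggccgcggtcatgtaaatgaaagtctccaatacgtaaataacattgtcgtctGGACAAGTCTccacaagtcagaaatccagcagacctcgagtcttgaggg
CCNG1 (chr5:163437321-163437570, plus strand): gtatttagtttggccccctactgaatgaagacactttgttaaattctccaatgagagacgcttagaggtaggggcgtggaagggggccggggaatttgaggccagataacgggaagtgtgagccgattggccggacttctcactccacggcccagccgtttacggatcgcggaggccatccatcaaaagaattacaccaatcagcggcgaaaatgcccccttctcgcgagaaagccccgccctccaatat
FDXR had 1 window of 2 with a match and SESN1 1 of 3. The decamer began 34 bases before the RefSeq transcript start that follows its window for AEN, 11 bases for FDXR, 132 for PLK2 and 49 for SESN1. These transcript starts lie inside the genes as the deposited table bounds them, so the windows overlap annotated gene bodies. AEN and FDXR shared 1 decamer, GGGCTTGCCC, while PLK2 had AGACTTGCTT and SESN1 had GGACAAGTCT. A match describes the letters of a window and is not a binding site, and a window without a match says nothing of elements elsewhere in the gene.

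With CDCA7 overexpressed in KYSE180, 2 of the 29 members tested rose, CCNG1 and BBC3, and 2 fell, AEN and TP53I3, while 25 did not pass the test. The 4 called members are 13.8% of those tested, against 9.08% of all 15944 genes tested, of which 4.65% rose and 4.43% fell. The median change was 0.16 over the members and -0.0049 over all genes tested. The calls rest on few libraries. With overexpression replicate 1 or 3 left out, limma-trend called 0 members, and 1 and 8 genes in all. With overexpression replicate 2 left out it called 2 members (6.9%, against 1.11% of all genes tested). With native replicate 1 left out it called 1 (3.45%, against 0.48%). With native replicate 2 or 3 left out it called 5 (17.2%, against 13.4% and 15%). EDA2R and SPATA18 had too few reads to pass the filter on low reads in any comparison. With shCDCA7 in KYSE150, 5 of the 28 members tested rose, PMAIP1, PLK2, CCNG1, RRM2B and SESN1, and 1 fell, XPC, while 22 did not pass. These 6 are 21.4% of those tested, against 19.9% of all 14342 genes tested, of which 10% rose and 9.86% fell. The share was close to the background, and the median change was 0.10 over the members and 0.0020 over all genes tested. Leaving out shCDCA7 replicate 1, 2 or 3 gave 3, 17 and 4 called members. These are 11.1%, 63% and 14.3% of the members tested, against 12.4%, 55.9% and 10.8% of all genes tested. Leaving out any 1 native KYSE150 library gave 2 (7.14% to 7.41%, against 2.93% to 4.91%). With the libraries scaled to total reads the KYSE150 calls split into 4 that rose and 3 that fell (25%, against 26.4% of all genes tested). With upper-quartile scaling they split into 4 and 2 (21.4%, against 22.7%). These scalings moved the median of all genes tested in KYSE150 to -0.161 and -0.132, and that of the members to -0.074 and -0.036.

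**Figure D1:**
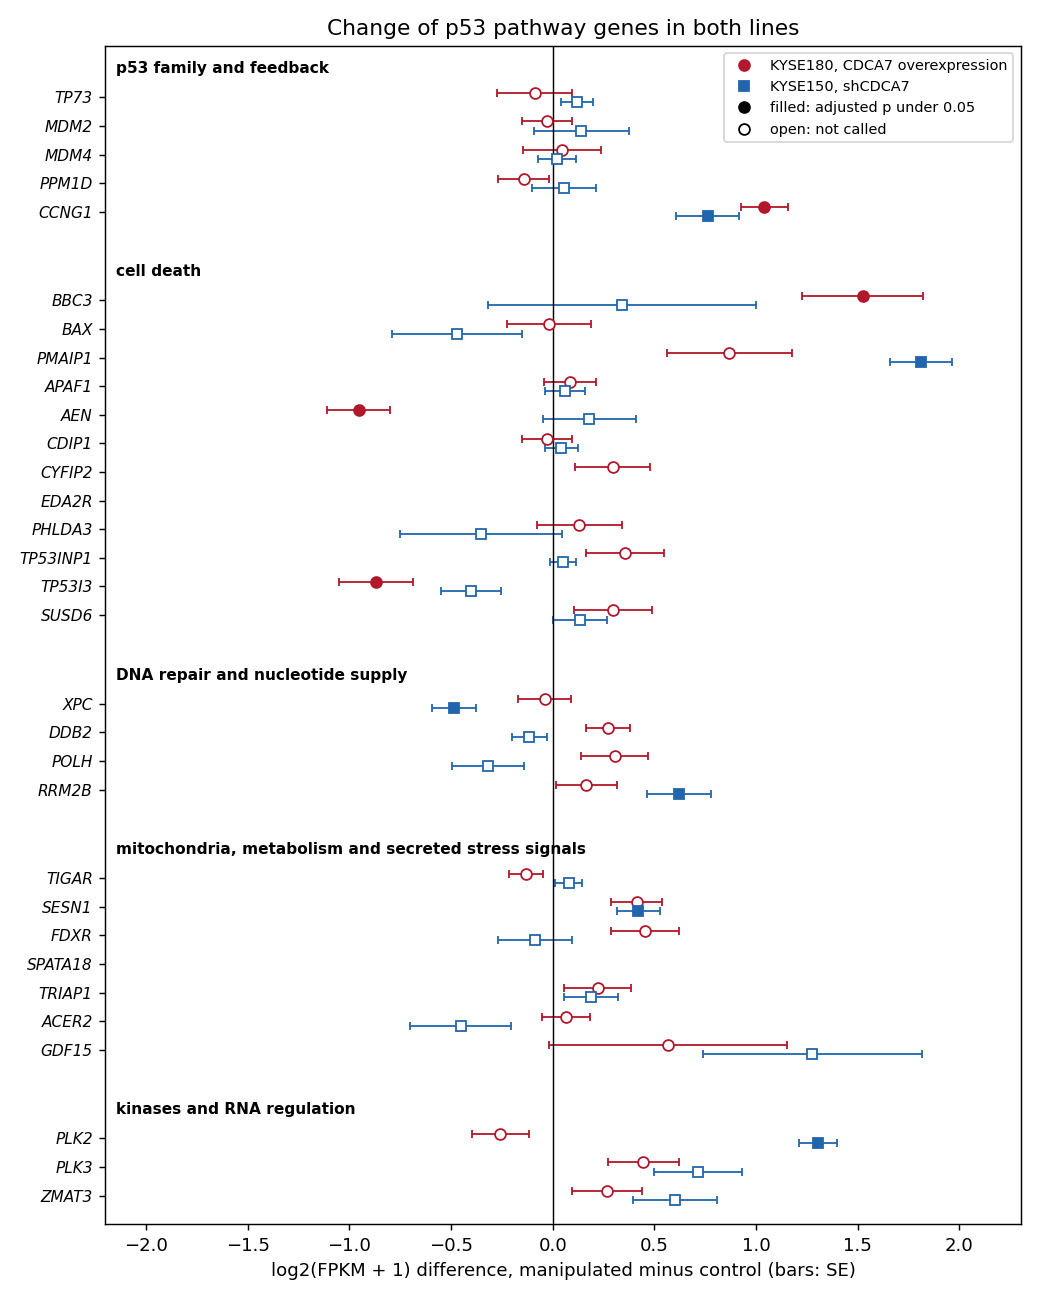
Change of each p53 pathway gene on the log2(FPKM + 1) scale, manipulated minus control, with circles for KYSE180 with CDCA7 overexpression, squares for KYSE150 with shCDCA7 and bars for the SE. Filled symbols passed an adjusted p of 0.05; CCNG1 is the member filled in both lines, AEN and TP53I3 are filled on the left for KYSE180, and XPC on the left for KYSE150.

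MDM2, MDM4 and PPM1D, regulators of p53, did not pass the test in either line. MDM2 (chr12:68808176-68850686) had 3.42, 4.15 and 3.66 FPKM in overexpressing KYSE180 and 3.75, 3.98 and 3.75 FPKM in native KYSE180, and the groups overlapped, with a log2 difference of -0.029 (SE 0.12, adjusted p = 0.903). With shCDCA7 it had 4.37, 8.46 and 4.52 FPKM and in native KYSE150 4.54, 4.77 and 5.55 FPKM, and differed by 0.14 (SE 0.23, adjusted p = 0.700). The shCDCA7 values split: replicate 2 lay above all native libraries and replicates 1 and 3 below them all, and without replicate 2 the difference was -0.12. MDM4, the MDM2 relative that inhibits p53, and PPM1D, a phosphatase that acts on p53 and on the kinases that activate it, differed by 0.044 (adjusted p = 0.902) and -0.14 (adjusted p = 0.471) in KYSE180 and by 0.021 (adjusted p = 0.893) and 0.055 (adjusted p = 0.834) in KYSE150. TP73, the p53 relative, averaged 5.24 ± 0.521 FPKM in overexpressing and 5.73 ± 1.47 FPKM in native KYSE180 (SD, n = 3 each), a difference of -0.089 (adjusted p = 0.783). Its level in KYSE150 was 0.383 FPKM or less in every library.

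CCNG1 (chr5:163437569-163446151), a cyclin that recruits a phosphatase to MDM2, was the member that rose in both lines. It had 44.4, 38.3 and 39.3 FPKM in overexpressing KYSE180 and 17.9, 21.0 and 18.9 FPKM in native KYSE180, so that its lowest overexpressing library lay above its highest native one, and it rose by 1.04 (SE 0.12, adjusted p = 0.00860). With shCDCA7 it had 38.6, 55.2 and 37.5 FPKM and in native KYSE150 25.0, 24.7 and 25.4 FPKM, again without overlap, and it rose by 0.76 (SE 0.16, adjusted p = 0.0208). Replicate 2 was the highest shCDCA7 library, and without it CCNG1 still rose, by 0.59 (SE 0.038, adjusted p = 4.86e-05). In KYSE180 the adjusted p was 0.0678 without overexpression replicate 1 and 0.0598 without replicate 3, with log2 differences of 0.98 and 1.06. In KYSE150 it was 0.0945, 0.0984 and 0.0856 without native replicates 1, 2 and 3, with differences of 0.75 to 0.77. The 2 changes share no library, and the difference between them was 0.28 (SE 0.20, adjusted p = 0.435).

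Setting the lines side by side, 1 of the 28 members tested in both was called in both (3.57%), against 433 of 13377 genes (3.24%). The number of members whose groups did not overlap in both lines and moved the same way was 5 of 28 (17.9%): CCNG1, PMAIP1, SESN1 and PLK3 were higher in both manipulated groups and TP53I3 was lower. Of all genes tested in both lines, 17.1% did so, which is close to the members' share. PLK3 is counted although its KYSE180 groups nearly touched. DDB2 was apart in both lines in opposite directions, as were 2.83% of all genes. The KYSE150 groups of DDB2 nearly touched as well.

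**Figure D2:**
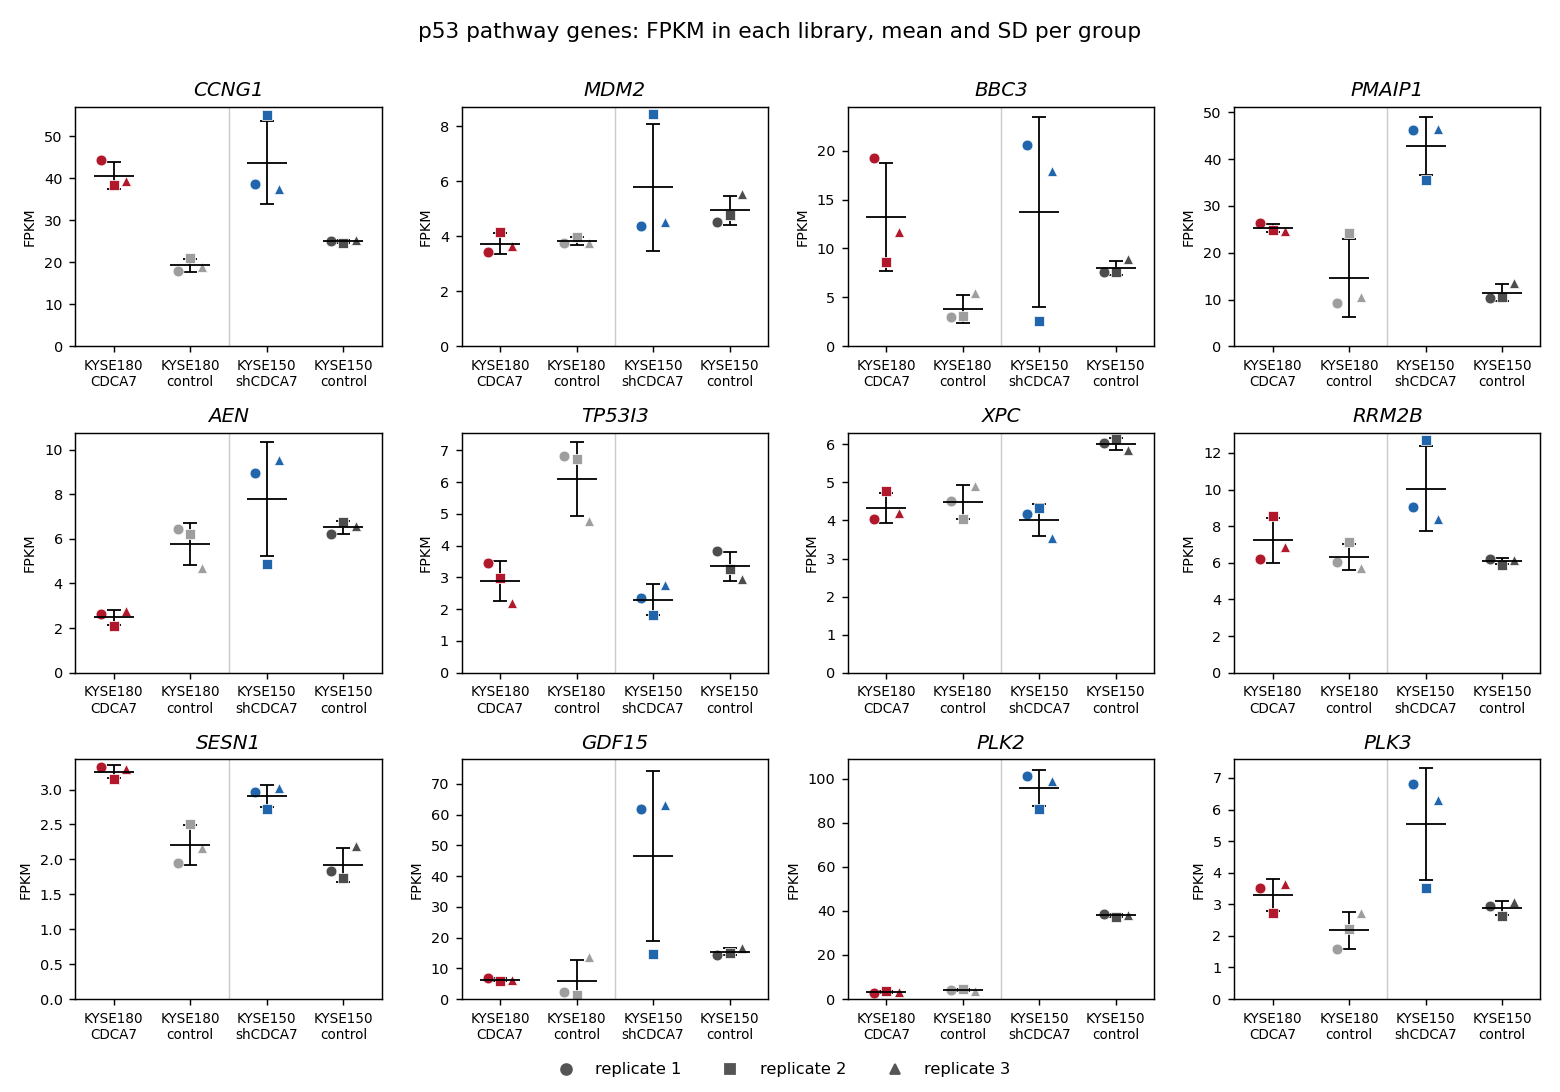
FPKM of the members called in either line, and of MDM2, GDF15 and PLK3, in each of the 12 libraries, with the manipulated group left of its native control for each line, a symbol for each replicate and bars for the mean and SD. CCNG1 is higher in every manipulated library than in the controls of its line, and the point of shCDCA7 replicate 2 lies far below the other shCDCA7 points for BBC3 and AEN.

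Of the 11 cell-death members tested in KYSE180, 1 rose and 2 fell (27.3%, against 9.08% of all genes), and of 10 tested in KYSE150, 1 rose and none fell (10%, against 19.9%). BBC3 (chr19:47220822-47232766), which encodes the BH3-only protein PUMA that activates mitochondrial cell death, had 19.3, 8.62 and 11.7 FPKM in overexpressing KYSE180 and 2.98, 3.06 and 5.46 FPKM in native KYSE180. The groups did not overlap and BBC3 rose by 1.52 (SE 0.30, adjusted p = 0.0288), although both groups were spread, overexpressing replicate 1 and native replicate 3 being the highest of each. Without overexpression replicate 1 the difference was 1.23 with an adjusted p of 0.0900, without overexpression replicate 3 it was 1.57 with 0.105, and without native replicate 1 it was 1.40 with 0.109, so each of these omissions ended the call, as did 1 fit of all 12 libraries (adjusted p = 0.0818). With shCDCA7 it had 20.6, 2.62 and 18.0 FPKM, and in native KYSE150 7.61, 7.59 and 8.88 FPKM. Replicates 1 and 3 lay at more than the highest native value and replicate 2 below the lowest, and the difference over all libraries was 0.34 (SE 0.66, adjusted p = 0.744), and 1.17 (SE 0.085, adjusted p = 7.17e-05) without replicate 2.

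PMAIP1 (chr18:59899948-59904306), which encodes the BH3-only protein NOXA, rose most among the members in KYSE150. It had 46.3, 35.5 and 46.5 FPKM with shCDCA7 and 10.4, 10.5 and 13.6 FPKM in native KYSE150, and every shCDCA7 library lay above every native one. It rose by 1.81 (SE 0.15, adjusted p = 0.00244) and stayed called without any 1 library. In overexpressing KYSE180 it had 26.3, 24.9 and 24.6 FPKM, against 9.19, 24.2 and 10.6 FPKM in native KYSE180. Native replicate 2 reached nearly the level of the overexpressing libraries while replicates 1 and 3 did not, and the difference of 0.87 (SE 0.31, adjusted p = 0.109) did not pass. Without native replicate 2 it was 1.27 (SE 0.13, adjusted p = 0.00156).

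AEN (chr15:88621296-88632282), a nuclease that degrades DNA in dying cells, had 2.61, 2.10 and 2.75 FPKM in overexpressing KYSE180 and 6.45, 6.20 and 4.70 FPKM in native KYSE180. All overexpressing libraries lay below all native ones and AEN fell, with a difference of -0.95 (SE 0.16, adjusted p = 0.0202). Its KYSE150 values were 8.93, 4.87 and 9.56 FPKM with shCDCA7 and 6.21, 6.77 and 6.57 FPKM in native cells, with replicates 1 and 3 above the native libraries and replicate 2 below them. That difference was 0.18 (SE 0.23, adjusted p = 0.609), and without replicate 2 it was 0.45 (SE 0.061, adjusted p = 0.000916). TP53I3 (chr2:24077433-24085861), a quinone oxidoreductase tied to oxidative stress, had 3.45, 2.99 and 2.21 FPKM in overexpressing KYSE180 and 6.82, 6.73 and 4.76 FPKM in native KYSE180, and fell, with a difference of -0.87 (SE 0.18, adjusted p = 0.0329). It had 2.35, 1.80 and 2.76 FPKM with shCDCA7 and 3.84, 3.27 and 2.94 FPKM in native KYSE150, where the groups were also apart but the difference of -0.40 (SE 0.15, adjusted p = 0.103) did not pass. Both KYSE180 calls were lost without overexpression replicate 1, 2 or 3 or without native replicate 1, with adjusted p-values of 0.0644 to 0.0948 for AEN and 0.0839 to 0.132 for TP53I3.

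The other cell-death members passed the test in neither line. BAX, which forms the pore in the mitochondrial membrane, averaged 23.9 ± 5.48 FPKM in overexpressing and 24.2 ± 5.40 FPKM in native KYSE180, and 19.3 ± 8.18 FPKM with shCDCA7 and 25.3 ± 0.854 FPKM in native KYSE150 (SD, n = 3 each). APAF1, the scaffold of the apoptosome, differed by 0.086 (adjusted p = 0.691) in KYSE180 and 0.059 (adjusted p = 0.692) in KYSE150. PHLDA3, an inhibitor of the kinase AKT, differed by 0.13 (adjusted p = 0.713) and -0.35 (adjusted p = 0.563), and CDIP1, a death-inducing p53 target, by -0.029 (adjusted p = 0.898) and 0.042 (adjusted p = 0.744). Without shCDCA7 replicate 2, PHLDA3 rose in KYSE150, by 0.15 (SE 0.051, adjusted p = 0.0439), and so did SUSD6, by 0.26 (SE 0.055, adjusted p = 0.00658). In that setting 55.9% of all genes tested were called. Of the exon bases of PHLDA3, 19.1% lie under another gene on the same strand. In the library of shCDCA7 replicate 2, BAX at 10.1 FPKM and PHLDA3 at 4.01 FPKM lay below every other KYSE150 library. TP53INP1, a nuclear stress protein, SUSD6, and CYFIP2, a subunit of an actin-regulating complex, differed by 0.36 (adjusted p = 0.250), 0.30 (adjusted p = 0.332) and 0.29 (adjusted p = 0.318) in KYSE180. CYFIP2 had 1, 3 and 1 reads with shCDCA7 and 1, 0 and 0 reads in native KYSE150, and was not tested there. EDA2R, a receptor of the tumour necrosis factor family, had 14 reads over all 12 libraries.

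Among the repair members none passed in KYSE180, by limma-trend or limma-voom, with 1 at an unadjusted p under 0.05. In KYSE150 1 of 4 rose and 1 fell (50%, against 19.9% of all genes tested). RRM2B (chr8:102204502-102239118), a ribonucleotide reductase subunit that supplies nucleotides for repair, had 9.05, 12.7 and 8.38 FPKM with shCDCA7 and 6.18, 5.91 and 6.16 FPKM in native KYSE150. The groups were apart, replicate 2 was the highest, and RRM2B rose by 0.62 (SE 0.16, adjusted p = 0.0394), or by 0.45 (SE 0.059, adjusted p = 0.000733) without replicate 2. XPC (chr3:14145147-14178783), which recognises damaged DNA in nucleotide excision repair, had 4.18, 4.34 and 3.53 FPKM with shCDCA7 and 6.03, 6.15 and 5.85 FPKM in native KYSE150, without overlap, and fell, with a difference of -0.49 (SE 0.11, adjusted p = 0.0270). In KYSE180, RRM2B had 6.22, 8.57 and 6.87 FPKM in overexpressing and 6.06, 7.11 and 5.73 FPKM in native cells, while XPC had 4.03, 4.78 and 4.20 FPKM in overexpressing and 4.51, 4.04 and 4.92 FPKM in native cells. Both overlapped there, with differences of 0.16 (adjusted p = 0.494) and -0.040 (adjusted p = 0.868). The RRM2B call was lost without shCDCA7 replicate 1 or any 1 native library, with adjusted p-values of 0.0678 to 0.150, and the XPC call without shCDCA7 replicate 1 or 3 or any 1 native library, with 0.0602 to 0.132. Exons annotated to 3 genes on the opposite strand overlap 23.8%, 8.61% and 6.63% of the exon bases of XPC, and no source used here says whether the counting used strand.

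DDB2, the partner of XPC in finding ultraviolet damage, had 17.6, 16.1 and 16.9 FPKM in overexpressing and 12.9, 14.4 and 14.3 FPKM in native KYSE180, and 13.2, 13.9 and 13.0 FPKM with shCDCA7 and 14.6, 15.2 and 14.0 FPKM in native KYSE150. It lay above every native library in KYSE180 and below every one in KYSE150, by 0.27 (adjusted p = 0.140) and -0.12 (adjusted p = 0.367). The KYSE150 groups nearly touched, with 13.92 FPKM in shCDCA7 replicate 2 and 13.98 FPKM in native replicate 3. For DDB2 the difference between the manipulations was 0.39 (SE 0.12, adjusted p = 0.0901). POLH, a polymerase that copies past damaged bases, differed by 0.30 (adjusted p = 0.255) in KYSE180 and -0.32 (adjusted p = 0.244) in KYSE150. Without shCDCA7 replicate 2, POLH and DDB2 fell in KYSE150, with differences of -0.51 (SE 0.074, adjusted p = 0.00122) and -0.14 (SE 0.050, adjusted p = 0.0442).

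Of the members tied to mitochondria, metabolism and secretion, SESN1 alone rose in KYSE150, 1 of 6 tested (16.7%, against 19.9% of all genes tested). None passed in KYSE180 by limma-trend or limma-voom, with 2 at an unadjusted p under 0.05. SESN1 (chr6:108986437-109094819), a sestrin that restrains growth signalling through mTORC1, had 2.96, 2.73 and 3.02 FPKM with shCDCA7 and 1.83, 1.74 and 2.20 FPKM in native KYSE150, and rose by 0.42 (SE 0.11, adjusted p = 0.0382). It had 3.32, 3.15 and 3.30 FPKM in overexpressing and 1.94, 2.51 and 2.16 FPKM in native KYSE180, also without overlap, by 0.41 (SE 0.13, adjusted p = 0.0763), and was called there in 1 fit of all 12 libraries (adjusted p = 0.0256). The sizes were close in both lines, with a difference between them of -0.0071 (SE 0.15, adjusted p = 0.986). The KYSE150 call of SESN1 was lost without any 1 library other than shCDCA7 replicate 2, with adjusted p-values of 0.0852 to 0.169, and its difference was 0.236 with total-read and 0.267 with upper-quartile scaling. FDXR, the reductase that feeds electrons to mitochondrial ferredoxins, averaged 22.1 ± 5.30 FPKM in overexpressing and 15.6 ± 0.964 FPKM in native KYSE180 (SD, n = 3 each), without overlap, a difference of 0.45 (adjusted p = 0.121) that did not pass.

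GDF15, a secreted cytokine of the TGF-beta superfamily, had the widest spread among these genes. It had 61.9, 14.5 and 63.1 FPKM with shCDCA7 and 14.4, 15.1 and 16.8 FPKM in native KYSE150, and 6.82, 5.85 and 6.03 FPKM in overexpressing and 2.23, 1.44 and 13.7 FPKM in native KYSE180. With shCDCA7, replicate 2 lay at the native level while replicates 1 and 3 lay far above it, and in native KYSE180 replicate 3 lay far above all other KYSE180 libraries. The differences were 1.28 (SE 0.54, adjusted p = 0.141) in KYSE150 and 0.57 (SE 0.58, adjusted p = 0.552) in KYSE180. Without shCDCA7 replicate 2, GDF15 rose in KYSE150, by 1.95 (SE 0.063, adjusted p = 7.72e-06), and without native replicate 3 it rose in KYSE180, by 1.36 (SE 0.16, adjusted p = 0.00917). ACER2, a ceramidase, and TRIAP1, a small mitochondrial protein, were called in KYSE150 without replicate 2, at -0.72 and 0.31, and in no line over all libraries. TIGAR, a phosphatase that lowers glycolysis, had 237 reads over all 12 libraries and 42.6% of its exon bases lie under another gene on the same strand, so its values are uncertain. SPATA18, which acts in mitochondrial quality control, had 29 reads in all.

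The kinases PLK2 and PLK3 and the RNA-binding protein ZMAT3 all had higher values with shCDCA7 than in native KYSE150. PLK2 (chr5:58453982-58460260), a polo-like kinase of stressed and cycling cells, had the highest mean level per kilobase over the 12 libraries, at 35.2 FPKM, with CCNG1 at 32.2 and PMAIP1 at 23.6 FPKM. This rank comes from KYSE150: PLK2 averaged 3.32 ± 0.509 FPKM in overexpressing and 4.14 ± 0.334 FPKM in native KYSE180 (SD, n = 3 each), below CCNG1, at 40.7 ± 3.23 and 19.3 ± 1.59 FPKM in the same groups. It had 101, 86.3 and 99.0 FPKM with shCDCA7 and 38.5, 37.2 and 38.3 FPKM in native KYSE150, far apart, and rose by 1.31 (SE 0.092, adjusted p = 0.00181). In KYSE180 it had 2.85, 3.86 and 3.23 FPKM in overexpressing and 4.26, 4.40 and 3.77 FPKM in native cells, which overlapped, with a difference of -0.26 (SE 0.14, adjusted p = 0.253). PLK2 and PMAIP1 were the 2 members called in KYSE150 without any 1 of the 6 libraries. PLK3, a relative of PLK2, had 6.80, 3.53 and 6.29 FPKM with shCDCA7 and 2.96, 2.63 and 3.06 FPKM in native KYSE150, and 3.50, 2.73 and 3.65 FPKM in overexpressing and 1.57, 2.23 and 2.73 FPKM in native KYSE180. Both pairs were apart, at 0.71 (adjusted p = 0.0637) and 0.44 (adjusted p = 0.135), and neither passed. In KYSE180 this was nearly a tie, with 2.726456 FPKM in overexpression replicate 2 and 2.726411 FPKM in native replicate 3. ZMAT3, which binds RNA and adjusts splicing, was apart in KYSE150, at 0.60 (adjusted p = 0.0848), and without shCDCA7 replicate 2 it rose, by 0.37 (SE 0.078, adjusted p = 0.00577).

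In all, the groups of 9 of 29 members did not overlap in KYSE180, 7 of them higher and 2 lower with overexpression, against 35.1% of all genes tested, 17.7% higher and 17.4% lower. In KYSE150 it was 10 of 28 (35.7%), 7 of them higher and 3 lower with shCDCA7, against 47.8% of all genes tested, 25.3% higher and 22.5% lower. By this count the members did not stand out from the background in either line.

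The change with overexpression in KYSE180 was set against the change with shCDCA7 in KYSE150 in 1 fit of all 12 libraries, as the first minus the second. Of 29 members tested, 2 were called and both were lower (6.90%), against 5.57% of 17088 genes, 2.87% higher and 2.7% lower. At an unadjusted p under 0.05 it was 6 members, against 22.2% of genes. PLK2 gave -1.56 (SE 0.15, adjusted p = 0.000858), its level being higher with shCDCA7 and not with overexpression, and it stayed called without any 1 library. AEN gave -1.13 (SE 0.29, adjusted p = 0.0432), falling with overexpression, and kept its call in 5 of 19 alternative settings, with adjusted p-values of 0.00249 to 0.113 over them. For AEN the libraries whose omission ended the call were all but native KYSE180 replicate 3 and shCDCA7 replicate 2. Under total-read scaling the split was 1 higher, DDB2, and 1 lower, PLK2 (6.9%, against 6.02% of genes). Under upper-quartile scaling PLK2 was the member called (3.45%, against 5.31%). Without shCDCA7 replicate 2, 4 members were called higher, ACER2, CCNG1, DDB2 and POLH, and 2 lower (20.7%, against 9.03% of genes).

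The library of shCDCA7 replicate 2 set several of the KYSE150 values. Without it, 17 of 27 members tested were called, 13 higher and 4 lower (63.0%), against 55.9% of 14215 genes, 29.5% higher and 26.4% lower, and all 6 members called over all libraries were kept. The members that rose in that setting were led by GDF15, PMAIP1 and PLK2, at 1.95, 1.93 and 1.38, and BBC3 and PLK3 followed at 1.17 and 0.96. The 4 that fell were ACER2, XPC, POLH and DDB2. In this library 12 of 28 members (42.9%) lay more than 0.5 on the log2 scale from the mean of replicates 1 and 3, against 32.7% of all genes tested. BBC3 lay at -2.48 and GDF15 at -2.03 from that mean, PHLDA3 at -1.50 and BAX at -1.17, while ACER2 lay at 0.81, MDM2 at 0.80 and ZMAT3 at 0.68. Over the 28 members this deviation varied with the GC content of the longest transcript, with Pearson's r = -0.74 and Spearman's rho = -0.66, and over 14336 genes with -0.55 and -0.56. These correlations are across genes of 1 library against its replicates, which are not independent. What part GC content played in the KYSE150 results was not tested.

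**Figure D3:**
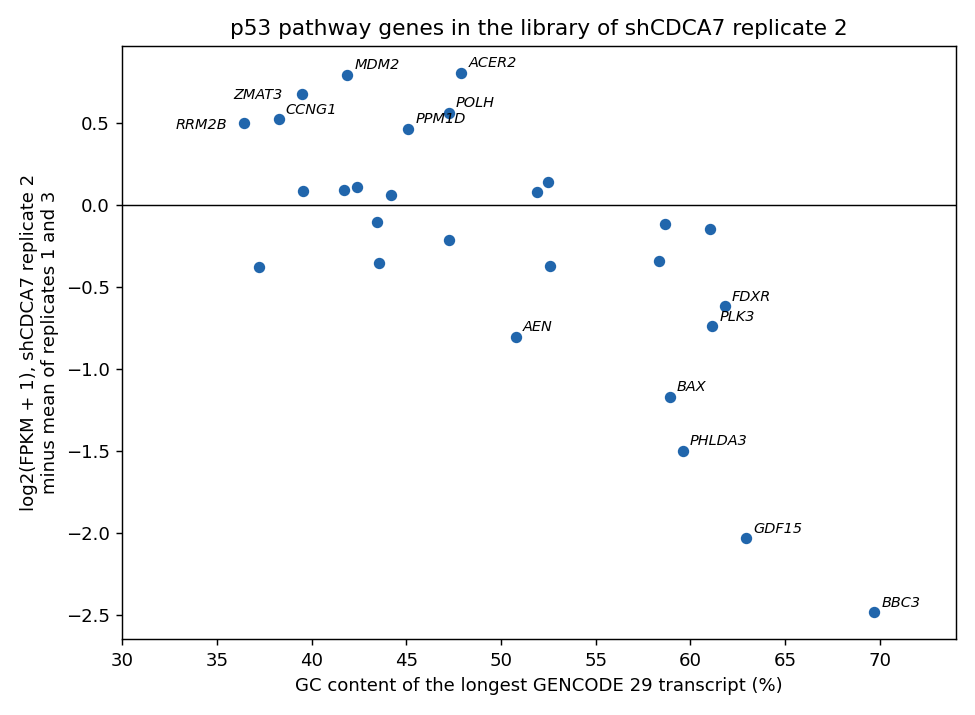
Deviation of shCDCA7 replicate 2 from the mean of replicates 1 and 3, in log2(FPKM + 1), against the GC content in percent of the longest transcript, 1 point for each of the 28 members tested in KYSE150. BBC3, at 69.7% GC, and GDF15, at 62.9%, lie lowest, and MDM2, at 41.9%, is among the highest.

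Native KYSE180 had 9 members higher and 4 lower than native KYSE150, 13 of 29 tested (44.8%), against 58% of 17088 genes, 33.4% higher and 24.6% lower. The groups of 19 members were apart (65.5%), 11 higher and 8 lower, against 71.3% of genes, 39.4% higher and 31.8% lower. In a fit of the 6 native libraries alone, 17 members were called, 11 higher and 6 lower (58.6%, against 64.6% of genes), with FDXR and ZMAT3 added on the higher side and BBC3 and MDM2 on the lower. This comparison uses the same native libraries as the comparisons within each line. With upper-quartile scaling the split was 10 higher and 2 lower (41.4%, against 58.4% of genes). TP73 had 6.69, 4.04 and 6.47 FPKM in native KYSE180 and 0.159, 0.319 and 0.148 FPKM in native KYSE150, which differed by 2.46 (SE 0.16, adjusted p = 1.27e-07). Of its exon bases, 9.36% overlap TP73-AS1 on the opposite strand. SUSD6 averaged 22.3 ± 6.42 FPKM in native KYSE180 and 6.13 ± 0.165 FPKM in native KYSE150 (SD, n = 3 each), a difference of 1.67 (adjusted p = 8.11e-06). TP53INP1 had 2.27, 1.68 and 3.38 FPKM in native KYSE180 and 0.0165, 0.0816 and 0.159 FPKM in native KYSE150. CYFIP2 had 261, 198 and 415 reads in native KYSE180 and 1, 0 and 0 reads in native KYSE150. Both were thus near the limit of detection in 1 line and readily measured in the other. The p53 inhibitors MDM4 and PPM1D were also higher in native KYSE180, by 0.71 (adjusted p = 0.00251) and 0.85 (adjusted p = 0.000333), as were CDIP1 by 0.88, POLH by 0.70 and TP53I3 by 0.70.

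On the lower side, PLK2 was the member that differed most, with 4.26, 4.40 and 3.77 FPKM in native KYSE180 and 38.5, 37.2 and 38.3 FPKM in native KYSE150, which differed by -2.92 (SE 0.11, adjusted p = 1.56e-09). GDF15, CCNG1 and XPC were lower in native KYSE180 by smaller or less certain differences, of -1.75 (SE 0.63, adjusted p = 0.0325), -0.36 (SE 0.14, adjusted p = 0.0409) and -0.36 (SE 0.11, adjusted p = 0.0173). MDM2 averaged 3.83 ± 0.133 FPKM in native KYSE180 and 4.95 ± 0.532 FPKM in native KYSE150 (SD, n = 3 each), apart but at -0.30 (adjusted p = 0.200), and with an adjusted p of 0.0309 in the fit of the 6 native libraries alone. PLK2 and the 9 higher members were called without any 1 of the 12 libraries, and 1 to 6 members were lower. GDF15 was not called without native KYSE180 replicate 1 or 2 or any 1 native KYSE150 library, XPC without native KYSE180 replicate 2 or native KYSE150 replicate 1 or 2, and CCNG1 without overexpression replicate 2 or 3, native KYSE180 replicate 1 or 3 or any 1 native KYSE150 library. Without shCDCA7 replicate 2, BBC3 and MDM2 were called lower as well, and 6 members were lower.

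**Figure D4:**
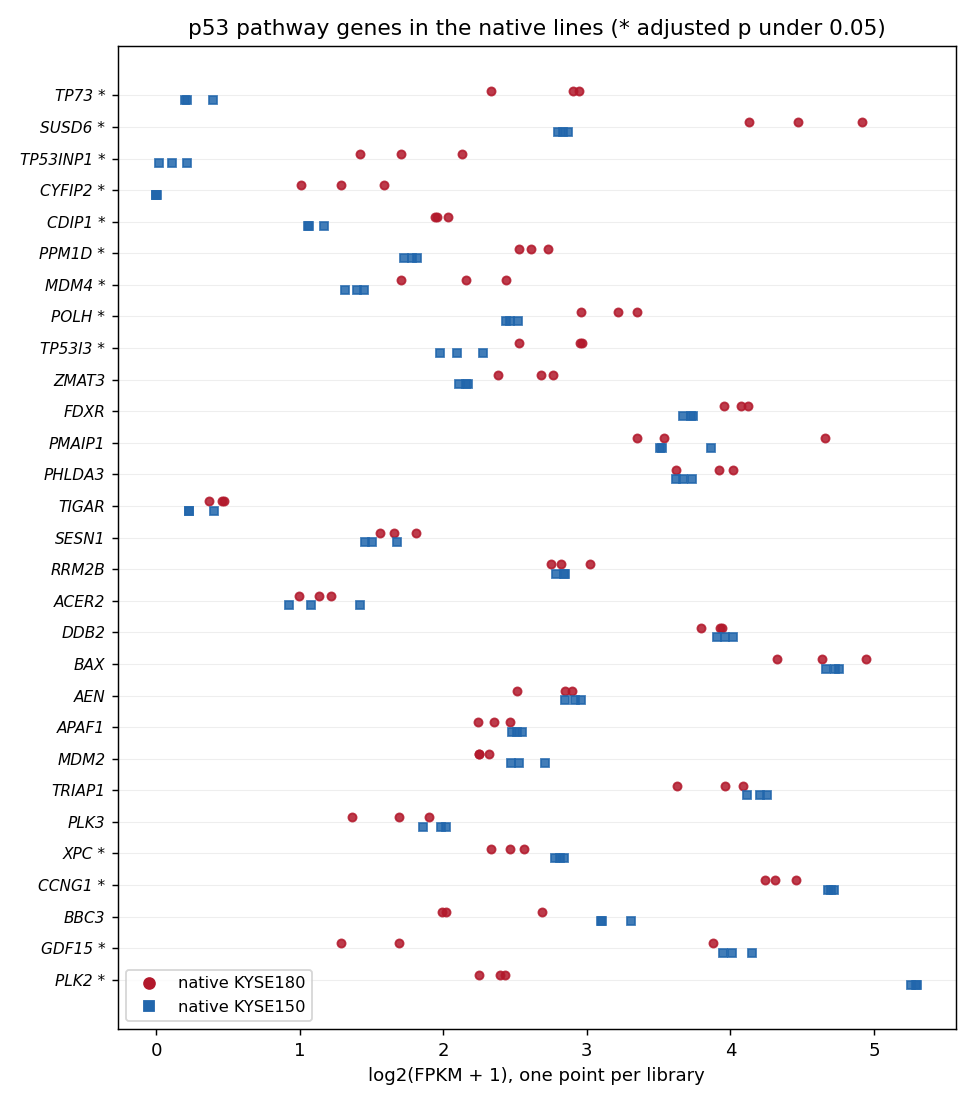
Level of the 29 tested p53 pathway genes in log2(FPKM + 1) in the native lines, 1 point per library, circles for KYSE180 and squares for KYSE150, with an asterisk where the adjusted p was under 0.05. TP73 at the top and PLK2 at the bottom are the genes with the widest gaps, in opposite directions.

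Among other genes of the pathway, lists of 17 upstream regulators and 30 further p53 targets were counted. In KYSE180, 0 of 15 upstream genes tested by limma-trend were called, with 4 at an unadjusted p under 0.05 and 1 called by limma-voom. Of 30 further targets there, 5 rose and 2 fell (23.3%, against the 9.08% of all genes), with a median change of 0.28. Among those that rose was CDKN1A, the cyclin-dependent kinase inhibitor p21, by 1.23 (SE 0.13, adjusted p = 0.00860). CDKN1A had 21.7, 20.1 and 20.5 FPKM in overexpressing and 7.16, 9.56 and 8.23 FPKM in native KYSE180, without overlap. GADD45A and BTG2, growth-restraining stress genes, rose by 1.07 and 1.06, and the death receptor FAS and the autophagy gene DRAM1 fell, with differences of -0.96 and -0.91. In KYSE150, 2 of 16 upstream genes rose and 0 fell (12.5%, against 19.9% of all genes tested). RCHY1, a ubiquitin ligase, rose by 0.64 and TP63, the p53 relative of squamous cells, by 0.58. By limma-voom 4 of the 16 were called (25%, against 20.9%), these 2 higher and HIPK2 and CREBBP lower. Without shCDCA7 replicate 2, 4 upstream genes rose and 6 fell (62.5%, against 55.9%). Of 28 further targets in KYSE150, 5 rose and 1 fell (21.4%, against 19.9%), with a median change of 0.27, and without shCDCA7 replicate 2 it was 15 and 4 (67.9%, against 55.9%). Those called over all libraries included GADD45A at 1.72 (adjusted p = 0.0264), BTG2 at 0.77 (adjusted p = 0.00924), FAS at 0.56 (adjusted p = 0.0111) and STEAP3, an iron reductase, at -0.58 (adjusted p = 0.0245). GADD45A and BTG2 rose in both lines. FAS fell in KYSE180 and rose in KYSE150, with a difference between the manipulations of -1.51 (SE 0.19, adjusted p = 0.00231). Of all genes tested in both lines, 410 of 13377 were called in both in the same direction and 23 in opposite directions. Without overexpression replicate 1 or 3, 1 and 8 genes in all were called in KYSE180. Whether GADD45A, BTG2 or FAS was among them was not examined. GADD45A had 76.93, 28.01 and 76.92 FPKM with shCDCA7 and 17.08, 14.99 and 16.05 FPKM in native KYSE150. Without shCDCA7 replicate 2 it rose by 2.20 (SE 0.056, adjusted p = 4.81e-06). CDKN1A differed by 0.62 (SE 0.25, adjusted p = 0.130) in KYSE150 and did not pass there, and the difference between the manipulations was 0.61 (SE 0.29, adjusted p = 0.245). It had 29.4, 14.7 and 27.3 FPKM with shCDCA7 and 15.1, 14.8 and 13.7 FPKM in native KYSE150, with replicate 2 alone at the native level, and without replicate 2 it rose, by 0.92 (SE 0.057, adjusted p = 4.22e-05).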

How the data were processed

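The deposited table gives FPKM per gene in 12 libraries, with gene coordinates and lengths. Per the submitters' processing notes the tools were HISAT2 2.0.5 and DESeq2 1.20.0 and the build mm10, a mouse build, although every gene position in the deposited table equals a GENCODE 29 human gene on GRCh38. The counting tool and its use of strand are not given in the sources used here. FPKM multiplied by gene length gave whole reads for 100% of values (tolerance 0.01), 16282281 to 19573805 per library. No 2 libraries were identical.

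Genes that reached 10 reads, scaled to the median library, in 3 or more libraries and held 15 reads in all were tested two-sided on log2(FPKM + 1) with limma 3.58.1 in R 4.3.3 (limma-trend, Benjamini-Hochberg adjustment over all genes tested). Alternatives were other pseudocounts, filters and scalings, limma-voom on the recovered reads, a replicate block, other sample sets and leaving out each library. The members, the lists and these choices were made with earlier results of these data known. By rule, members called in a line or between manipulations, and MDM2, are given by library; other members given in detail were chosen after their values were seen. Groups follow the sample titles. The values of 1 further target that was called are not reported here.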

Additional observations from a re-analysis of the deposited data

Results flagged for a closer look

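The change of PLK2 differed between the manipulations, by -1.56 on the log2 scale (overexpression in KYSE180 minus shCDCA7 in KYSE150, SE 0.15, adjusted p = 0.000858). All 3 shCDCA7 libraries lay above the native KYSE150 libraries, while the KYSE180 groups overlapped. The change of AEN differed as well, by -1.13 (SE 0.29, adjusted p = 0.0432). All 3 overexpressing KYSE180 libraries lay below the native ones. In KYSE150, shCDCA7 replicates 1 and 3 lay above the native libraries and replicate 2 below them, a change of 0.18 (adjusted p = 0.609). The difference between the manipulations was called for AEN in 5 of 19 alternative settings and for PLK2 in 19 of 19. In this contrast the manipulation and the line change together, and the 2 cannot be told apart.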

How the results depend on the processing

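With no filter on low reads, 0 members rose and 0 fell in KYSE180 (3 genes were called in all), 2 rose in KYSE150, 1 was lower between the manipulations and 10 were higher, SPATA18 among them, and 2 lower between the native lines. Scaling to total reads gave 3 that fell in KYSE150 and 1 higher and 1 lower between the manipulations. Upper-quartile scaling gave 2 that fell in KYSE150, 1 lower between the manipulations and 2 lower between the native lines. Replicate numbers did not pair the libraries (same-number correlations of -0.076 to 0.066, and 1 of 6 libraries correlated best with its own number). Fits with a replicate block gave 2 higher and 2 lower in KYSE180 (603 genes called in all, against 1447), 2 higher and 0 lower in KYSE150 (1001 against 2854), 1 lower between the manipulations and 2 lower between the native lines. Leaving out 1 library gave 0 to 3 higher and 0 to 2 lower in KYSE180, 2 to 13 and 0 to 4 in KYSE150, 0 to 4 and 1 to 2 between the manipulations, and 9 to 11 and 1 to 6 between the native lines. The share of all genes called then ran from 0.00635% to 15% in KYSE180 and 2.93% to 55.9% in KYSE150. It ran from 1.59% to 9.64% between the manipulations and 50.4% to 65.4% between the native lines. Over all genes, 1 and 8 were called without overexpression replicates 1 and 3 in KYSE180, and 7948 without shCDCA7 replicate 2 in KYSE150. Small differences turned sign. Without 1 library, MDM2 ran from -0.089 to 0.021 and XPC from -0.1 to 0.016 in KYSE180, where XPC was 0.001 without overexpression replicate 1. In KYSE150, AEN was -0.047 and MDM2 -0.085 with total-read scaling, and AEN -0.008 and MDM2 -0.049 with upper-quartile scaling. There MDM2 ran from -0.125 without shCDCA7 replicate 2 to 0.283 without replicate 1, and BBC3 from -0.121 without replicate 1, over -0.027 without replicate 3, to 1.167 without replicate 2, which also turned PHLDA3 to 0.15, FDXR to 0.12, PPM1D to -0.10 and MDM4 to -0.016. Between the manipulations MDM2 ran from -0.312 without shCDCA7 replicate 1 to 0.096 without replicate 2. The cause was not tested. Of the values of single genes under alternatives, 520 kept direction and side of the threshold, 79 no longer passed, 5 newly passed and 11 reversed. Genes of few reads, such as EDA2R, SPATA18 and TIGAR, could not be resolved at this depth.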
